A study of Mus musculus with 10 samples.

Results

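The nuclear factor I genes Nfia, Nfib, Nfic and Nfix and the homeobox gene Prox1 were described in single amacrine cells of the mouse retina. The members were listed by symbol, and they are 5 of the 27933 gene rows of the count table. Over all 32523 cells, the number of UMIs (unique molecular identifiers, which count each captured RNA molecule once) ran from 3672 for Nfib to 23464 for Nfic. At least 1 UMI of Nfic was counted in 40.5% of all cells, of Prox1 in 18.8%, of Nfia in 17.5%, of Nfix in 13.6% and of Nfib in 6.58%.

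Nuclear factor I proteins bind DNA as dimers and activate or repress transcription. The family has a single paralogue for each of the letters A, B, C and X, and its members can form dimers with one another. In the developing retina Nfia, Nfib and Nfix are known from late progenitors and act in the formation of late-born cells such as Müller glia and bipolar cells, whereas Nfic is expressed broadly across tissues. Prox1 encodes a homeodomain factor required for horizontal cells and used as a marker of AII amacrine cells, glycinergic neurons of the rod pathway that are coupled by gap junctions. Amacrine cells as a whole release GABA, made by Gad1 and Gad2, or glycine, which is taken up again by the transporter encoded by Slc6a9.

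The study sorted retinal cells of mice of a single cre-GFP strain at postnatal day 19 and sequenced them in 10 libraries on the 10x Chromium platform with 3′ chemistry. All libraries share this strain, age and sort, none was treated, and the labels divide them only by batch: batch 1 is a single library, batch 2 has 5 and batch 3 has 4. Cells were sorted as living by Calcein Blue, without GFP and without antibody signal for CD133, the product of Prom1, and CD73. Nothing in the labels ties a library to an animal. Each p-value therefore reflects variation among libraries, part or all of which can be technical.

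The libraries held 950 to 4738 cells and 6302659 to 26028492 UMIs, with a median of 3296.5 to 5717 UMIs per cell. The summed level of the 4 pan-amacrine markers Tfap2a, Tfap2b, Slc32a1 and Pax6 was 2756 to 3002 CPM per library. CPM is the number of UMIs of a gene per 1000000 UMIs of the same cells. Markers of other classes were also detected. At least 3 markers of a class other than amacrine cells were found in 6189 cells (19.0%), 5218 of them with 3 markers of Müller glia. Of the cell barcodes, 923 occurred in more than 1 library, and they named 1860 cells.

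Cells were grouped by the UMIs of marker genes. The Gad gate (at least 2 UMIs of Gad1 plus Gad2, none of Slc6a9) held 16415 cells and the Slc6a9 gate (at least 2 UMIs of Slc6a9, none of Gad1 or Gad2) 4556. Gates of at least 3 UMIs of Gjd2, the gap junction protein connexin 36, and of at least 2 UMIs of Prom1 held 1940 and 1358 cells. Gates of at least 3 UMIs of the peptide gene Cck, 2 UMIs of the cholinergic pair Chat plus Slc18a3, and 2 UMIs of the vesicular glutamate transporter gene Slc17a8 held 1474, 651 and 666 cells. The gates share cells. Of the Gjd2 gate, 48.1% of cells were also in the Slc6a9 gate and 11.4% in the Gad gate. Of the Prom1 gate 59.1% were in the Slc6a9 gate, of the Cck gate 54.3% in the Gad gate, and of the Chat gate 77.6% in the Gad gate. The Cck and Chat gates had 252 cells in common. A gate rests on sparse counts: 1187 cells stood just under the threshold for Gjd2 and 1713 just under that for Prom1.

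All 5 members had a single gene record in GENCODE M21 of the GRCm38 assembly. Nfia (ENSMUSG00000028565.18) spans chr4:97772734-98118874 on the plus strand. Nfib (ENSMUSG00000008575.17) lies on the same chromosome at chr4:82290173-82705750 on the minus strand. Nfic (ENSMUSG00000055053.18) spans chr10:81396186-81455635, Nfix (ENSMUSG00000001911.16) chr8:84699876-84800344 and Prox1 (ENSMUSG00000010175.13) chr1:190118035-190170714, all on the minus strand. Counts were made per gene, and whether strand was used is not given in the sources used here. An antisense gene, Prox1os, overlaps the 5′ end of Prox1 at chr1:190170296-190217276 and had 3258 UMIs in all cells, against 11861 of Prox1. E130114P18Rik, on the opposite strand to Nfia at its 5′ end, had 1801 UMIs against 12744 of Nfia. The other overlapping genes of the table had 1 to 287 UMIs.

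RefSeq windows of the 250 bases before the transcript start (GRCm38.p6) were matched by symbol for 4 of the 5 members, Nfia, Nfic, Nfix and Prox1. The 2 printed here belong to the members with the largest rise from the Gad to the Slc6a9 gate, each at its 5′-most start in that table. Capitals mark E-boxes (CANNTG, which reads the same on both strands), the motif bound by basic helix-loop-helix factors. The Prox1 window is chr1:190170828-190171077, minus strand, and lies inside the Prox1os record. The Nfix window is chr8:84780083-84780332, minus strand, and lies within the GENCODE record of the gene.
Prox1: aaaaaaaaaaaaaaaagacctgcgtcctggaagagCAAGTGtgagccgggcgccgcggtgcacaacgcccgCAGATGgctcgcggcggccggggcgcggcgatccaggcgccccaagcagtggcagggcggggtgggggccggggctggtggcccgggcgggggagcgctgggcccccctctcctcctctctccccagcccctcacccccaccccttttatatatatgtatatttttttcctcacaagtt
Nfix: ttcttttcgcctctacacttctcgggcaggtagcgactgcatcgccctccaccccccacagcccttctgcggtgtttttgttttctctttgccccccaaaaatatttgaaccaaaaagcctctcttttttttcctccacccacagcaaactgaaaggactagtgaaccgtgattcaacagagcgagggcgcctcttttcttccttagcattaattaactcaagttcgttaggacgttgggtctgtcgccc
The Prox1 window held 2 E-boxes and the Nfix window 0. An E-box was present in 66.2% of all 32851 mouse windows of this length. The NFI half-site TTGGC, searched on both strands, was in 0 of these 2 windows and in 41.5% of all windows. The table holds 4 windows for Nfix, at its different starts. Of the 3 not printed, those at chr8:84775829-84776078 and chr8:84772876-84773125 each held 1 half-site, with 2 E-boxes and 1 E-box, and the other held neither motif. The second Prox1 window held neither, and the windows of Nfia and Nfic held 4 E-boxes and 1, with no half-site. A match is a description of the sequence only.

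Prox1 split the gates into 2 levels. Over libraries, its CPM was 285 ± 25.5 in the Gjd2 gate (SD, n = 10), 267 ± 42.4 in the Slc6a9 gate and 224 ± 40.9 in the Prom1 gate (n = 9, since 1 library had 9 cells). It was 55.3 ± 20.7 in the Cck gate, 32.8 (0 to 73.6 over libraries) in the Slc17a8 gate, 19.4 ± 16.5 in the Chat gate and 15.8 ± 6.90 in the Gad gate. The lowest library of the Prom1 gate (168) lay above the highest of the Cck gate (89.8), and no other neighbours in this order were separated. Across all 5 members this was the one step between neighbouring gates at which library ranges did not overlap.

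Nfia had the same leading gates but a wider spread. Its mean CPM fell from 220 ± 33.8 in the Gjd2 gate through 174.5 ± 72.7 (Slc6a9), 73.0 ± 50.4 (Prom1), 52.2 ± 31.98 (Slc17a8), 44.4 ± 14.5 (Gad) and 29.6 ± 14.6 (Cck) to 17.5 ± 14.9 in the Chat gate. Nfix led in the Prom1 gate, at 508 ± 186, followed by the Cck gate at 224 ± 62.8 and the Slc6a9 gate at 215 ± 120.5. It was between 13.5 ± 3.39 and 52.1 ± 25.8 in the Gad, Chat, Gjd2 and Slc17a8 gates. Nfib was the least abundant member in UMIs and also led in the Prom1 gate, at 121.5 ± 33.2, with 54.1 ± 26.7 in the Slc6a9 gate, 27.4 ± 9.28 in the Cck gate and 4.49 ± 1.03 in the Gad gate. Nfic had another order of gates: it was highest in the Chat gate (161 ± 35.6), between 131 and 146 in the Gad, Cck, Gjd2 and Slc17a8 gates, and lowest in the Prom1 (84.3 ± 39.2) and Slc6a9 gates (79.8 ± 21.96). A 3′ UMI counts a molecule once whatever the gene's length, so CPM of different members can be set side by side, apart from differences in capture at each 3′ end.

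**Figure D1:**
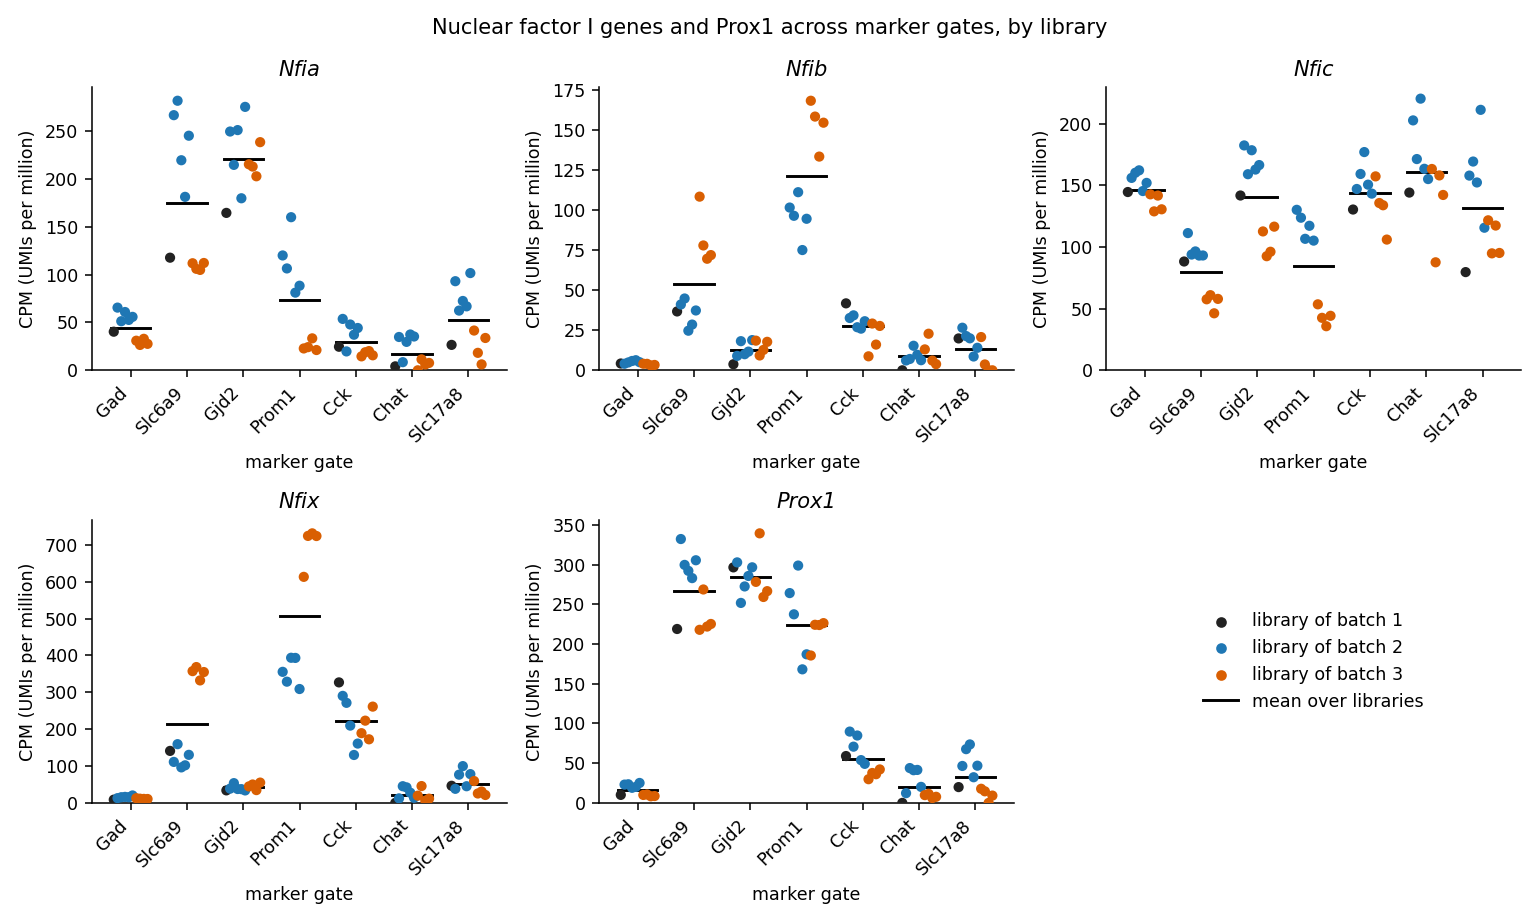
CPM of each member (y axis, linear from 0) in the 7 marker gates (x axis); points are libraries coloured by batch and lines are means over libraries. Prox1 is high in the Slc6a9, Gjd2 and Prom1 gates and low in the rest, Nfix and Nfib peak in the Prom1 gate, and Nfic is lowest in the Slc6a9 and Prom1 gates.

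Cells with the glycine transporter and cells with the GABA enzymes differed in all 5 members. Between these gates 6887 of 11250 genes tested passed (61.2%), 32.1% higher and 29.1% lower in the Slc6a9 gate. At the same threshold, 12.8% of genes passed at 2-fold or more, against 4 of 5 members. Prox1 counted 218, 276 and 332 CPM in the lowest, median and highest library of the Slc6a9 gate, and 8.30, 14.8 and 25.1 in the Gad gate. The ranges did not touch, and each of the 10 libraries was higher. The log2 change was 4.10 ± 0.10 (SE), or 17.2-fold, with an adjusted p of 5.88e-19 (edgeR quasi-likelihood test, Benjamini-Hochberg adjustment). Of the 11250 genes, 48 rose by more.

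Nfix and Nfib rose almost as far. Nfix was 96.3, 150.2 and 369 CPM in the lowest, median and highest library of the Slc6a9 gate and 8.75, 12.8 and 20.2 in the Gad gate, a log2 change of 3.86 ± 0.23 (adjusted p = 3.80e-12, edgeR). Nfib was 24.7, 43.0 and 108 CPM against 3.05, 4.17 and 6.30, a change of 3.54 ± 0.21 (adjusted p = 4.61e-12, edgeR). In neither gene did the ranges of the gates touch. Nfia, higher in 10 of 10 libraries, rose from 26.5 to 65.4 CPM (median 45.8) in the Gad gate to 105 to 281 (median 149) in the Slc6a9 gate, a change of 1.99 ± 0.06 (adjusted p = 8.32e-17, edgeR). Nfic alone was lower, in 10 of 10 libraries. Its range was 46.2 to 111 CPM in the Slc6a9 gate and 129 to 162 in the Gad gate, a change of -0.89 ± 0.08 (adjusted p = 3.00e-09, edgeR). Ranges did not overlap for any of the 5 members, which held for 18.1% of genes tested.

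Several measures moved with these gates. The 7 Müller glia markers, all detected, summed to 927 to 1236 CPM in the Gad gate and 393 to 525 in the Slc6a9 gate, and the median depth was 5411 and 3664 UMIs per cell. At least 3 markers of another class were found in 21.4% and 10.8% of the cells. Without those cells the changes were 4.20 for Prox1, 4.05 for Nfix, 3.96 for Nfib, 1.97 for Nfia and -0.83 for Nfic. Prox1os was also higher in the Slc6a9 gate, at 71.2 ± 6.53 CPM against 3.84 ± 1.08. Whether its overlap with Prox1 affected the count of either gene was not tested. In the Gjd2 gate, where Prox1 was highest, Prox1os was at 33.6 ± 8.49 CPM. In batch 2 alone the changes were 3.79 for Prox1, 2.89 for Nfix, 2.75 for Nfib, 2.07 for Nfia and -0.65 for Nfic, and in batch 3 alone 4.62, 4.95, 4.49, 1.90 and -1.26.

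Slc6a9 cells without a counted UMI of Gjd2, Prom1 or Slc17a8 still carried all 5 differences. In an alternative chosen after seeing the data, cells of the Slc6a9 gate with any UMI of these 3 genes were left out, which kept 1864 cells. The kept cells were shallower, with a median of 3012 UMIs against 3664 in the whole gate, and 925 of them had under 3000. A cell with no counted UMI of a gene may still express it, so cells of those types can remain in this set. Prox1 was then at 154 ± 35.6 CPM, Nfix at 153 ± 66.1, Nfia at 73.9 ± 30.3, Nfic at 63.1 ± 16.0 and Nfib at 49.5 ± 22.6. Against the Gad gate the log2 changes were 3.29 for Prox1, 3.43 for Nfix, 3.37 for Nfib, -1.23 for Nfic and 0.77 for Nfia. Of these, the change of Nfia moved the most, from 3.98-fold to a log2 value under 1 (adjusted p = 2.70e-09 by edgeR; at most 7.49e-09 over all 20 alternatives).

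**Figure D2:**
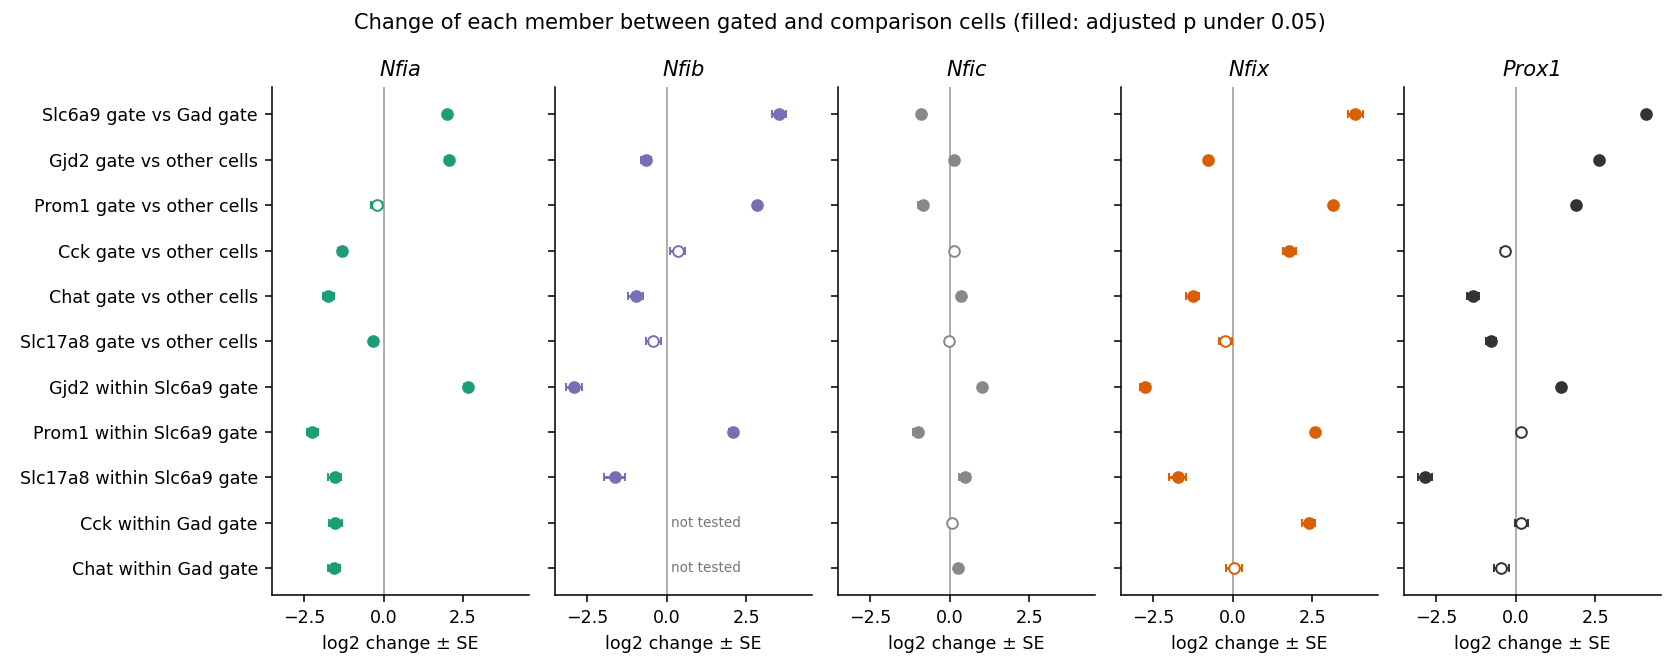
Log2 change (x axis, ± SE) of each member between gated cells and their comparison cells for the 11 comparisons (rows); filled points had an adjusted p under 0.05 by edgeR, open points did not. Nfia and the pair Nfib and Nfix point in opposite directions for Gjd2 and Prom1 cells within the Slc6a9 gate, and Prox1 is lowered by 2.84 for Slc17a8 cells there.

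Levels in the Slc6a9 gate differed between batches. Nfix was 96.3 to 159 CPM in the 5 libraries of batch 2 and 332 to 369 in the 4 of batch 3, and Nfib 24.7 to 44.8 against 69.6 to 108. Nfia went the other way, at 181 to 281 CPM in batch 2 and 105 to 112 in batch 3, as did Nfic (93.0 to 111 against 46.2 to 60.9). Batch 1, a single library, had 141 CPM of Nfix, 36.7 of Nfib, 118 of Nfia and 88.2 of Nfic. None of these ranges overlapped between batches 2 and 3. Prox1, at 283 to 332 CPM against 218 to 269, was also separated but by less.

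The size and make-up of the Slc6a9 gate moved with batch as well. It held 8.13 to 11.3% of a library's cells in batch 2, 21.2 to 23.2% in batch 3 and 14.8% in batch 1. Cells of the Prom1 gate were 4.75 to 8.51% of the Slc6a9 gate in batch 2, 25.1 to 28.9% in batch 3 and 3.55% in batch 1. Cells of the Gjd2 gate were 19.9 to 27.1%, 17.7 to 18.4% and 24.1%. CD133, used to remove cells in the sort, is the product of Prom1. The 6 ganglion cell markers, all detected, summed to 187 to 515 CPM over the libraries of the Slc6a9 gate and to 485 to 1039 in its Prom1 cells, against 85.8 to 164 in its Gjd2 cells. The part of these differences in the members' levels was not tested. Within the Prom1 gate the batches differed as well, with Nfix at 309 to 394 CPM in batch 2 and 613 to 731 in batch 3. In the Gjd2 gate the batches overlapped for 4 members, with Prox1 at 252 to 303 CPM in batch 2 and 259 to 339 in batch 3, and Nfia at 180 to 275 and 202.5 to 238. Nfic was separated there too, at 159 to 182 CPM in batch 2 and 92.5 to 116 in batch 3. In the Gad gate Prox1 was 19.0 to 25.1 CPM in batch 2 and 8.30 to 10.6 in batch 3. A level summed over a gate cannot tell fewer cells with a transcript from fewer transcripts per cell.

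**Figure D3:**
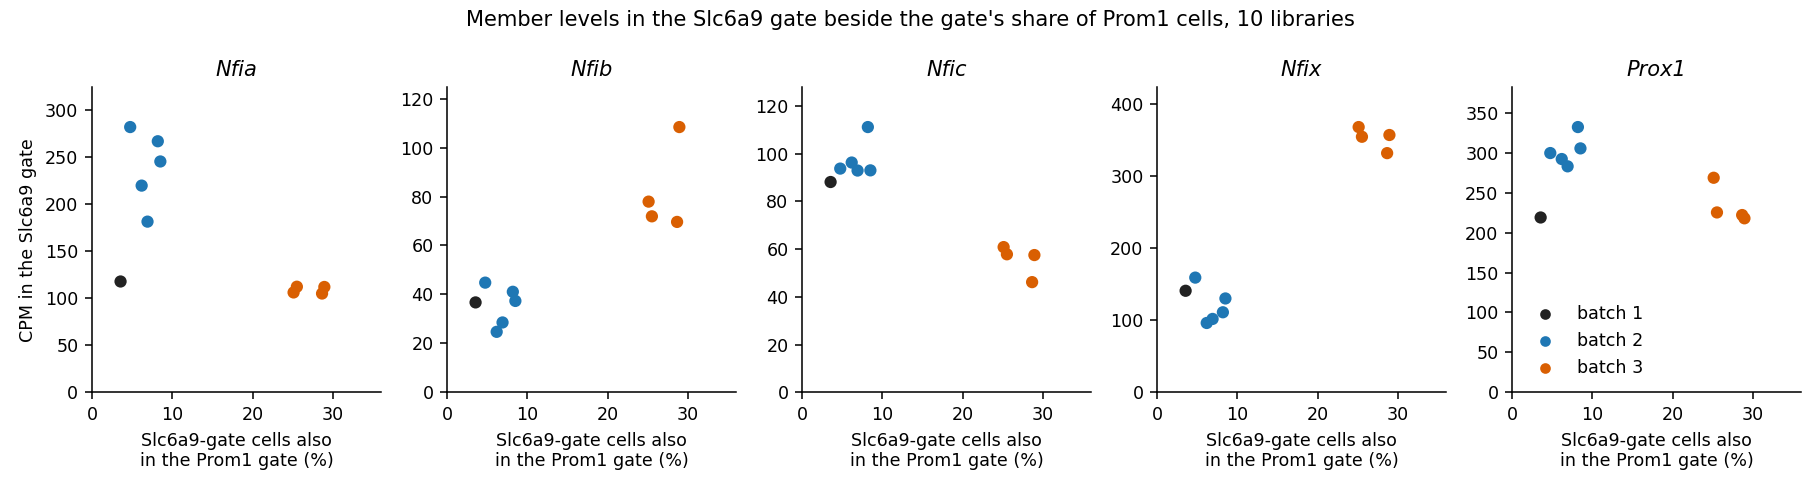
CPM of each member in the Slc6a9 gate (y axis, linear from 0) against the percentage of that gate's cells that are also in the Prom1 gate (x axis), 1 point per library coloured by batch. The 4 libraries of batch 3 stand apart at 25.1 to 28.9%, with Nfix and Nfib above and Nfia and Nfic below those of batch 2.

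Gjd2 cells combined Prox1 and Nfia with little Nfib and Nfix. Against all other cells, 5 of 5 members passed, where 48.4% of 11647 genes did. Prox1 was 252, 282 and 339 CPM in the lowest, median and highest library, against 33.3, 47.6 and 53.3 in other cells, a log2 change of 2.62 ± 0.06 (adjusted p = 1.86e-18, edgeR). Nfia was 164, 215 and 275 CPM against 34.0, 55.4 and 80.6, a change of 2.05 ± 0.12 (adjusted p = 5.94e-12, edgeR). Both were higher in 10 of 10 libraries without overlap, as 10.4% of genes were separated in either direction, and 41 genes rose by more than Prox1. In batches 2 and 3 alone the changes were 2.54 and 2.69 for Prox1 and 1.72 and 2.68 for Nfia. Nfix (-0.77 ± 0.11) and Nfib (-0.64 ± 0.15) were lower, with overlapping ranges, in 10 and 9 of 10 libraries. The change of Nfix was -0.36 in batch 2 alone, -1.33 in batch 3 alone and -1.50 after thinning to 2000 UMIs, and passed in each. The call on Nfib was lost in batch 2 alone, at -0.35 (adjusted p = 0.056; over its 20 alternatives the changes ran from -1.24 to -0.35). The change of Nfic was 0.14 ± 0.05 (adjusted p = 0.0249, edgeR) and was -0.058 in batch 3 alone. That call was lost without any 1 of the libraries 1, 3 and 5 of batch 2, at 0.12, 0.14 and 0.13, and without cells that had at least 3 markers of another class, at 0.098.

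The split was sharper within the Slc6a9 gate, where 934 cells with at least 3 UMIs of Gjd2 were set against cells with none. All 5 members passed, as did 46.9% of 7161 genes. Nfia was 261 to 456 CPM (median 312) in Gjd2 cells and 27.2 to 123.5 (median 53.6) in the others, a log2 change of 2.65 ± 0.13 (adjusted p = 7.34e-18, edgeR). Prox1 was 360 to 509 CPM (median 447) against 110 to 204 (median 175), a change of 1.43 ± 0.06 (adjusted p = 2.27e-19, edgeR). Nfib, the other way, was 0 to 28.5 CPM (median 8.98) against 35.4 to 142.5, a change of -2.91 ± 0.24 (adjusted p = 6.30e-12, edgeR). Nfix was 19.4 to 85.7 CPM (median 43.8) against 137.5 to 515, a change of -2.76 ± 0.15 (adjusted p = 3.79e-16, edgeR). None of these 4 pairs of ranges overlapped, which held for 13.6% of genes. Nfic rose by 1.01 ± 0.09 with overlapping ranges. Both batches 2 and 3 alone gave the same signs for all 5, with Nfia at 2.16 and 3.29, Prox1 at 1.43 and 1.37, Nfib at -1.90 and -3.66, Nfix at -2.02 and -3.28, and Nfic at 0.90 and 1.24. The median depth of the Gjd2 cells was 4834.5 UMIs, above the 3664 of the whole Slc6a9 gate. By library it was 4349.5 to 6173 UMIs, against 2192 to 4353 in the cells with no Gjd2. With every cell thinned to 2000 UMIs the changes were 2.67 for Nfia, 1.40 for Prox1, -2.90 for Nfib and -3.11 for Nfix. The 7 Müller glia markers summed to 152 to 286 CPM over the libraries of these Gjd2 cells, against 393 to 525 in the whole gate. The 5 horizontal cell markers, which do not include Prox1, summed to 202 to 246 CPM against 153 to 186. Without cells that had at least 3 markers of another class the changes were 2.58 for Nfia, 1.43 for Prox1, -3.06 for Nfib, -2.82 for Nfix and 1.02 for Nfic.

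Prom1 cells were rich in Nfix, Nfib and Prox1. Against all other cells, 4 of 5 members passed, where 31.9% of 12140 genes did, with n = 9 libraries. Nfix was 309, 394 and 731 CPM in the lowest, median and highest library against 40.5, 56.0 and 76.3, a log2 change of 3.16 ± 0.09 (adjusted p = 8.54e-14, edgeR). Nfib was 75.1, 111 and 168 CPM against 13.3, 16.8 and 22.7, a change of 2.85 ± 0.09 (adjusted p = 5.27e-13, edgeR). Only 21 genes rose by more than Nfix and 33 by more than Nfib. Prox1 was higher by 1.90 ± 0.09, at 168 to 299 CPM against 45.2 to 75.6. These 3 were separated in range, as 6.55% of genes were. Nfic was lower by a log2 change of -0.85 ± 0.14, at -0.39 in batch 2 alone and -1.40 in batch 3 alone. Nfia had a change of -0.22 ± 0.18 (adjusted p = 0.413, edgeR), with 4 libraries higher and 5 lower, and the batches were opposed: 0.30 in batch 2 alone and -1.03 in batch 3 alone.

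Within the Slc6a9 gate the 802 Prom1 cells were compared with cells that had no Prom1 UMI. Here 4 of 5 members passed, against 22.5% of 7987 genes. Nfix was 475 to 791 CPM (median 664) against 44.7 to 165, a change of 2.59 ± 0.08 (adjusted p = 4.22e-28, edgeR). Nfib was 93.2 to 187 CPM (median 148) against 17.6 to 66.2, a change of 2.08 ± 0.12 (adjusted p = 8.33e-19, edgeR). Nfia was lower in 9 of 9 libraries, at 15.4 to 121 CPM (median 87.2) against 126.5 to 268, a change of -2.23 ± 0.16 (adjusted p = 3.49e-15, edgeR). The ranges of these 3 genes were apart, as for 3.86% of genes, and Nfia fell by 1.20 in batch 2 alone, by 2.98 in batch 3 alone and by 3.76 with 1 UMI more of Prom1 in the gate. Nfic changed by -0.998 ± 0.14, a call lost in batch 2 alone at -0.77 (adjusted p = 0.056; -1.29 to -0.77 over 18 alternatives). Prox1 did not pass, at 207 to 418 CPM against 193 to 315 and a change of 0.18 ± 0.07 (adjusted p = 0.0688, edgeR). Without library 1 or library 2 of batch 3, taken out 1 at a time, it was 0.22 and passed in each case. Within the Slc6a9 gate, mean Prox1 was 442 ± 47.2 CPM in the Gjd2 cells, rich in Nfia, and 297 ± 65.7 in the Prom1 cells, rich in Nfib and Nfix. These sets are only parts of the gate, and the cells without Prom1 include Gjd2 cells.

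Slc17a8 cells lacked much of the Slc6a9-gate pattern although 28.5% of them were in that gate. Within the gate, 190 cells with at least 2 UMIs of Slc17a8 were compared with cells that had none. All 5 members passed, against 24.7% of 5594 genes. Prox1 was 0 to 111 CPM (median 5.37) against 227 to 345.5 (median 285.5), a log2 change of -2.84 ± 0.22 (adjusted p = 1.26e-16, edgeR). It was lower in 10 of 10 libraries without overlap, as 6.54% of genes were separated, and 31 genes fell by more. Nfix (-1.72 ± 0.26), Nfib (-1.63 ± 0.32) and Nfia (-1.54 ± 0.20) were lower with overlapping ranges. In batch 2 alone Prox1 was at -2.06, Nfia at -1.12, Nfib at -0.91 and Nfix at -0.29, of which the last 2 did not pass. In batch 3 alone Prox1 was at -6.49, Nfia at -2.86, Nfib at -2.45 and Nfix at -3.98. The libraries of batch 3 held 11 to 31 of these Slc17a8 cells. With a median Prox1 of 5.37 CPM over all libraries and a lowest of 0, the size of its -6.49 is poorly determined. Nfic was higher by 0.48 ± 0.17 (adjusted p = 0.0305, edgeR), in 8 of 10 libraries. Left out 1 at a time, libraries 2 and 4 of batch 2 and each of the 4 libraries of batch 3 ended that call, at 0.40 to 0.45.

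Among all cells, 2 of 5 members passed for Slc17a8, where 25.1% of 11459 genes did, and the ranges of all 5 overlapped (5.11% of genes were separated). Prox1 changed by -0.78 ± 0.17 (0 to 73.6 CPM against 56.2 to 81.7; adjusted p = 0.000559, edgeR). Nfia changed by -0.32 ± 0.11 (adjusted p = 0.0297, edgeR). Its call was lost without library 2 or 3 of batch 2 or library 2 or 4 of batch 3, at -0.27 to -0.32. The Slc17a8 gate had a median depth of 4841 UMIs, against 4210 in all cells. Its 7 Müller glia markers summed to 749 to 962 CPM over libraries, against 839 to 1028 in all cells. The 7 bipolar markers summed to 98.8 to 711 CPM against 106 to 204. Before any thinning, at least 3 markers of another class were found in 40.4% of the cells of this gate, the highest share of any gate. Without such cells the changes were -1.29 for Prox1, -0.48 for Nfia, -1.92 for Nfib and -0.59 for Nfix, and the last 2, which were -0.41 ± 0.25 and -0.23 ± 0.20 in all cells, then passed. The batches were far apart: Prox1 changed by -0.42 in batch 2 alone and -2.53 in batch 3 alone, and Nfix by 0.43 and -1.80, with each of these passing.

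Cck cells were rich in Nfix and poor in Nfia. Of the members, 2 of 5 passed, against 17.5% of 11558 genes. Nfix was 130.0, 216 and 327 CPM in the lowest, median and highest library against 39.1, 46.5 and 120.1 in other cells, a log2 change of 1.78 ± 0.20 (adjusted p = 6.13e-06, edgeR). These ranges did not overlap, as for 2.30% of genes, and 55 genes rose by more. The change was 2.33 in batch 2 alone and 0.92 in batch 3 alone. Nfia was 14.6 to 53.6 CPM (median 22.3) against 48.7 to 103, lower in 10 of 10 libraries by a change of -1.31 ± 0.11 (adjusted p = 2.05e-07, edgeR). Prox1 (-0.33 ± 0.13), Nfib (0.35 ± 0.23) and Nfic (0.14 ± 0.05) did not pass. Each of these 3 passed without 1 library: Prox1 at -0.45 without library 3 of batch 2, Nfib at 0.58 without library 1 of batch 3, and Nfic at 0.16 without library 4 of batch 3. The 7 Müller glia markers summed to 565 to 968 CPM in Cck cells and 839 to 1028 in all cells. Without cells that had at least 3 markers of another class, Nfia changed by -2.02, Nfix by 1.80 and Prox1, which then passed, by -0.83.

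Nfix was unevenly spread within the Cck gate. The 189 Cck cells with no UMI of Gad1, Gad2 or Slc6a9 held 572 of the gate's 2314 UMIs of Nfix. Their level was 902 to 1899 CPM (mean 1246 ± 327 over the 8 libraries that held 10 or more of them). The 800 Cck cells of the Gad gate had 19.5 to 91.3 CPM (mean 49.6 ± 24.4, n = 10). The 72 Cck cells of the Slc6a9 gate had 880 to 1195 CPM (n = 4). These sets do not cover the Cck gate. Its cells outside both gates that had a UMI of Gad1, Gad2 or Slc6a9 are left out, and their Nfix was not summed separately. All cells with neither marker, 2120 in number and shallower, with a median of 1736 UMIs, had 364 ± 120 CPM of Nfix, 84.2 ± 28.6 of Nfib and 119 ± 23.5 of Prox1. Within the Gad gate, Cck cells were still higher in Nfix than cells without Cck, which had 6.64 to 13.7 CPM, by a log2 change of 2.39 ± 0.21 (adjusted p = 2.20e-07, edgeR). It was 2.84 in batch 2 alone and 1.59 in batch 3 alone. There 2 of the 4 members tested passed, against 17.4% of 10383 genes, and ranges of Nfix were apart, as for 2.69% of genes. Nfia was again lower, by a change of -1.51 ± 0.19 with overlapping ranges, and by -2.76 without cells that had at least 3 markers of another class. Prox1 (0.17 ± 0.21) and Nfic (0.08 ± 0.05) did not pass, and Nfib was below the filter on low counts at 1.02 to 26.3 CPM.

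Of the 7 gates, the cholinergic gate had the highest mean Nfic, and it had little of the other members. Against other cells, 5 of 5 passed, where 34.7% of 11416 genes did. Nfia was 0 to 37.4 CPM (median 9.95) against 47.2 to 103, a log2 change of -1.73 ± 0.17 (adjusted p = 2.20e-09, edgeR). Prox1 was 0 to 43.9 CPM (median 11.8) against 57.6 to 82.5, a change of -1.35 ± 0.19 (adjusted p = 1.31e-06, edgeR). Nfix was 0 to 45.7 CPM (median 16.7) against 47.2 to 129, a change of -1.26 ± 0.21 (adjusted p = 2.27e-05, edgeR). These 3 were lower in 10 of 10 libraries without overlap, as 7.69% of genes were separated. In batch 2 alone the changes were -1.56 for Nfia, -1.05 for Prox1 and -0.73 for Nfix, and in batch 3 alone -3.05, -2.86 and -2.43. The 7 Müller glia markers summed to 206 to 585 CPM over the libraries of the Chat gate and 839 to 1028 in all cells, and the 5 horizontal cell markers to 200 to 355 against 164 to 178. Without cells that had at least 3 markers of another class the changes were -2.77 for Nfia, -1.87 for Prox1, -2.38 for Nfix, -1.87 for Nfib and 0.42 for Nfic. With all cells Nfib changed by -0.97 ± 0.23, and Nfic by 0.36 ± 0.07 (adjusted p = 7.61e-05, edgeR), higher in 9 of 10 libraries (0.18 after thinning to 2000 UMIs and 0.26 in batch 3 alone, where it did not pass). The Gad gate holds most of these cells. Set against its cells with no UMI of Chat or Slc18a3, its Chat cells differed in 2 of the 4 members tested, where 38.6% of 10388 genes passed. Nfia was lower by a change of -1.56 ± 0.20 (adjusted p = 1.33e-07, edgeR) and Nfic higher by 0.25 ± 0.07 (adjusted p = 0.00469, edgeR). The change of Nfic was 0.071 in batch 3 alone (adjusted p = 0.846; 0.024 to 0.33 over 19 alternatives). Prox1 (-0.45 ± 0.24) and Nfix (0.05 ± 0.25) did not pass, and Nfib was below the filter. Prox1 passed without cells that had at least 3 markers of another class, at -1.07. Batches 2 and 3 alone gave -1.37 and -2.58 for Nfia in this comparison. None of the members was separated in range here, against 8.99% of genes.

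The share of each paralogue among the family's UMIs does not depend on the total of a cell. Of 44 tests over 11 comparisons, 34 passed (exact sign-flip permutation test over libraries, 2-sided, Benjamini-Hochberg adjustment over 44). Within a comparison the shares add up to the whole family, so a fall of one paralogue raises the shares of the others. The 44 tests are therefore not independent, and a share can move without a like change in that member's own level. With 10 libraries the smallest p this test can give is 0.00195, adjusted to 0.0043. Nfic made up 70.6% ± 4.65 of the family's UMIs in the Gad gate and 16.1% ± 6.22 in the Slc6a9 gate, in the same direction in 10 of 10 libraries and at that smallest p. Nfix was 6.42% ± 1.12 and 39.4% ± 17.4, and Nfia 20.8% ± 4.28 and 34.5% ± 15.2. Within the Slc6a9 gate, Nfia was 67.2% ± 5.03 of the family in Gjd2 cells and 14.3% ± 9.59 in cells without Gjd2. Nfix was 71.1% ± 7.32 in Prom1 cells and 25.1% ± 10.1 in cells without Prom1, and Nfia 7.44% ± 5.65 and 46.1% ± 9.66. In Slc17a8 cells of the gate Nfic was 53.0% ± 23.3, against 15.2% ± 5.91 in the others, while the log2 change of its own level was 0.48 ± 0.17. Each of these differences in share had the same sign in every library and the smallest p that its number of libraries allows.

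**Figure D4:**
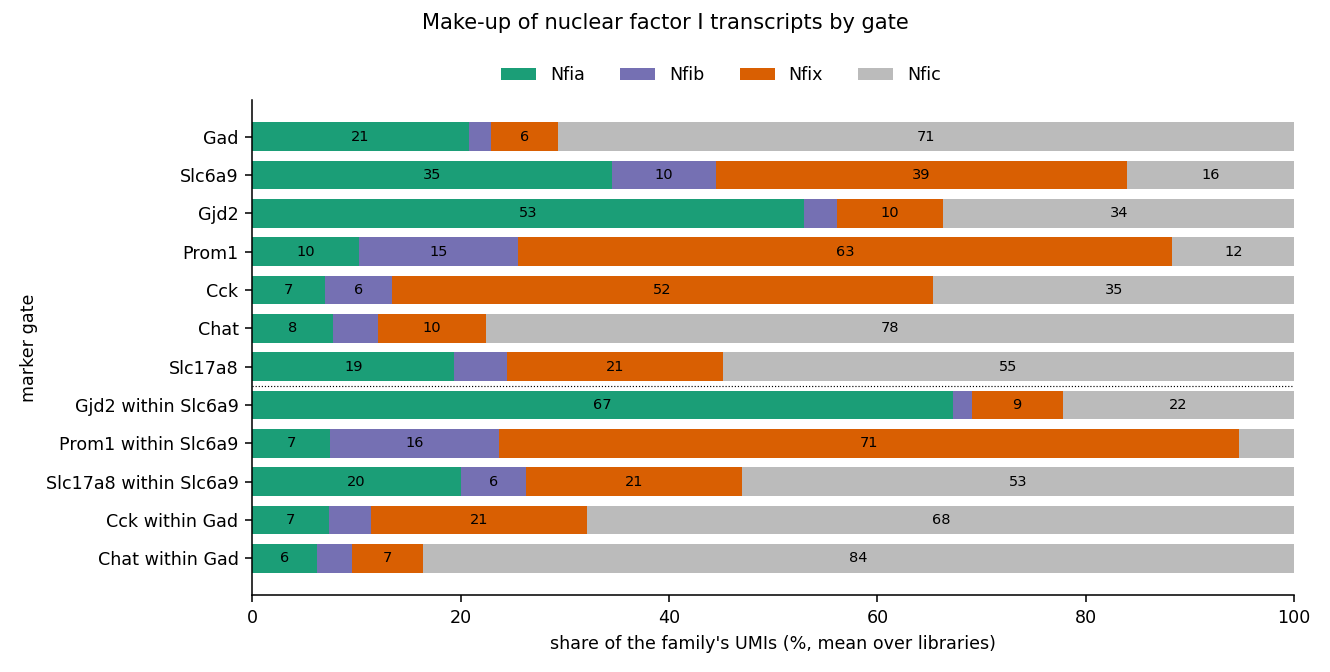
Share of the summed UMIs of Nfia, Nfib, Nfix and Nfic (x axis, percent, mean over libraries with at least 10 cells) taken by each paralogue in the 7 marker gates and, under the dotted line, in 5 gates within the Slc6a9 or Gad gate. Nfic leads in the Gad, Chat and Slc17a8 gates, Nfia in the Gjd2 gate, and Nfix in the Prom1 and Cck gates.

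In single cells Nfia was rarely counted together with Nfib or Nfix. Cells were thinned to 2000 UMIs, which left out 843 of the 4556 cells of the Slc6a9 gate and 2094 of the 16415 of the Gad gate. Prox1 was then counted in 36.3% ± 5.71 of Slc6a9-gate cells and 2.48% ± 1.10 of Gad-gate cells (48.5% and 5.90% before thinning, at median depths of 3664 and 5411). Nfia was counted in 21.98% ± 8.41 and 6.56% ± 1.95, Nfix in 21.8% ± 12.7 and 2.06% ± 0.70, and Nfib in 8.32% ± 4.39 and 0.75% ± 0.20 (unthinned 29.8% and 11.7%, 26.8% and 4.41%, and 12.7% and 1.89%). For Nfic the order was reversed, at 14.3% ± 3.85 and 23.8% ± 2.05 (23.5% and 51.3%). Of the Slc6a9-gate cells, 20.3% ± 7.87 had Nfia without Nfib or Nfix, 21.8% ± 13.6 had Nfib or Nfix without Nfia, 1.72% ± 0.83 had both, and 56.2% ± 8.33 had none of the 3. A cell counted as lacking a gene at this depth may still express it.

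Of 20 pairs tested in the 2 gates, 6 passed (exact sign-flip permutation test over libraries, 2-sided, adjusted over 20). Nfix was counted in 77.1% ± 8.64 of the cells with Nfib and 17.9% ± 11.3 of the cells without it in the Slc6a9 gate (9 of 9 libraries, adjusted p = 0.013). Among cells with Nfia, Nfix was found in 6.99% ± 3.42, against 25.04% ± 14.1 of cells without Nfia, and Nfib in 2.16% ± 1.66 against 9.69% ± 4.96. Prox1 was found in 47.2% ± 6.58 of cells with Nfia and 33.2% ± 4.95 of cells without it. These 3 differences had the same sign in 10 of 10 libraries (adjusted p = 0.013 each, same test, exact). Nfix was counted in 11.5% ± 6.14 of cells with Nfic and 23.2% ± 13.5 of cells without it, in 9 of 10 libraries (adjusted p = 0.013, exact); at 3000 UMIs that difference did not pass (-8.45 percentage points, adjusted p = 0.0742, exact). Detection of Prox1 did not differ beyond the spread with that of Nfix (0.48 percentage points, SD 6.51) or of Nfib (-2.29, SD 13.4). In the Gad gate 1 pair passed: Prox1 was counted in 7.41% ± 3.22 of the 320 cells with Nfix and in 2.49% ± 1.10 of those without (9 of 9 libraries, adjusted p = 0.013, exact). The 3 pairs on Nfib in that gate had 5 libraries each, where the smallest p of the exact test is 0.0625, and could not pass. Among them, Nfix was counted in 24.2% ± 11.5 of cells with Nfib and 2.25% ± 0.56 of cells without it, in the same direction in 5 of 5 libraries. The pairs were not tested within the Gjd2, Prom1 or Slc17a8 cells.

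**Figure D5:**
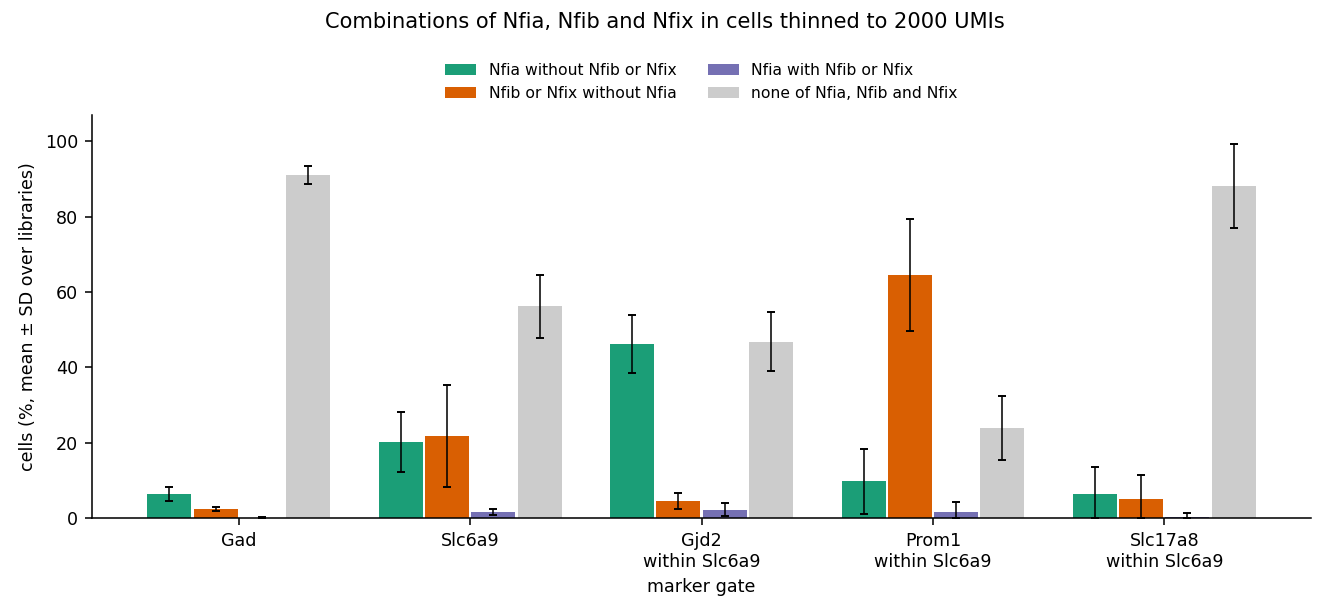
Percentage of cells (y axis, mean ± SD over 8 to 10 libraries with at least 10 cells) with Nfia alone, with Nfib or Nfix alone, with both sides, or with none of the 3, after thinning to 2000 UMIs (lower error bars end at 0), for the Gad gate, the Slc6a9 gate and 3 gates within the latter (x axis). Nfia alone marks 46.3% of Gjd2 cells and 9.79% of Prom1 cells, and Nfib or Nfix alone 4.57% and 64.5%.

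The same contrast appeared inside the Slc6a9 gate. Of the Gjd2 cells, 46.3% ± 7.68 had Nfia without Nfib or Nfix, 4.57% ± 2.02 the reverse and 2.33% ± 1.60 both. Of the Prom1 cells, 9.79% ± 8.57 had Nfia alone, 64.5% ± 14.8 had Nfib or Nfix alone and 1.79% ± 2.62 both (n = 9). Prox1 was counted in 56.2% ± 6.29 and 41.7% ± 6.89 of them. Of the Slc17a8 cells, 88.0% ± 11.1 had none of the 3 and 5.45% ± 7.95 had Prox1 (n = 8).

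Patterns of other genes were compared with those of the members over 29 marker gates, the 7 above and 22 more. The 5426 genes compared had at least 50 CPM in a gate. Genes that define any of these gates, such as Prom1, Ebf3, Gjd2 and Neurod2, were left out and could not rank. Likeness is Pearson's r of log2(CPM + 20), and the gates share cells and libraries, so r is a description. Nfib was most like Nfix (r = 0.97), and r was 0.80 for both Nfib and Nfix with Prox1 and 0.49 for Nfia with Prox1. Nfia had r of 0.26 with Nfib and 0.27 with Nfix, and Nfic had -0.42 with Nfib and -0.37 with Nfix. Outside the family, Nfib and Nfix both had Lgr5, the receptor of R-spondins, as the nearest of the genes ranked (r = 0.95 each). Nfib was next most like Htra1, Lmcd1 and Spink13 (0.94 each), and Nfix like the helix-loop-helix factor gene Ebf1 (0.94), the calcium channel subunit gene Cacna2d3 (0.93) and Ier5 (0.92). Prox1 was most like Hao2 (0.96), Tmtc2 (0.95), Neurod4 (0.95), Traip and BC034090 (0.94 each). Nfia was most like Slc35f4 (0.84), Elovl4 (0.79), Adam11 (0.78), Myo6 (0.76) and Tmem243 (0.72), and Nfic like BC030499 (0.95), Eif4g3 (0.89), Rhobtb2 (0.86), the neurexin gene Nrxn2 (0.86) and Ensa (0.85).

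The list of 20 genes known from the timing of retinal cell birth and from neuronal differentiation, which holds none of the members, moved in both directions. In the Slc6a9 gate against the Gad gate, 14 were tested, 8 were higher and 6 lower, 6 and 5 of them by at least 2-fold, where 4.84% of all genes tested were higher and 7.99% lower at that size. The median log2 change of the 14 was 0.49, beside 0.03 for all genes tested. The basic helix-loop-helix genes Neurod2 (4.96 ± 0.08; 273 CPM against 8.56) and Neurod4 (3.54 ± 0.12; 176 against 15.2) and their partner Tcf4 (3.35 ± 0.05; 593 against 59.5) rose the most. The homeobox gene Meis2 (-4.56 ± 0.09; 35.1 against 800.1 CPM) and the zinc finger homeobox genes Zfhx4 (-3.81 ± 0.17; 5.70 against 78.8) and Zfhx3 (-3.46 ± 0.09; 14.9 against 160) fell the most (adjusted p at most 2.61e-14 for these 6, edgeR). Among Gjd2 cells of the Slc6a9 gate 3 of 9 tested were higher and 5 lower (median -0.70), where 46.9% of all genes tested passed in either direction. Among Prom1 cells of that gate 2 of 10 were higher and 4 lower (median -0.29; 22.5% of all genes), and among Slc17a8 cells 4 of 7 were higher and 3 lower (median 1.14; 24.7%). Among Cck cells of the Gad gate 6 of 13 were higher and 3 lower (17.4% of all genes), and among its Chat cells 2 of 13 were higher and 7 lower (38.6%). The medians of all genes tested lay between -0.0089 and 0.0046 in these 5 comparisons.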

How the data were processed

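The deposited table holds raw UMI counts per gene and cell, made by the authors with Cell Ranger 2.1.0 on mm10, per the submitters' processing notes. Each of its 27933 gene rows was used as deposited, except that 7109 rows without a count entered no fit, and 0 sample columns were left unused. Cells were kept as deposited (at least 601 genes each), and no doublet caller was run. Counts were summed per library and gate, with libraries of at least 10 cells in a gate. The sums were compared with edgeR 4.0.16 in R 4.3.3 (quasi-likelihood test with a term for library, after filterByExpr and TMM, with adjustment over all genes tested by Benjamini-Hochberg and a threshold of 0.05). Gated and comparison cells come from the same library, which is why library is the block. SE is the log2 change divided by the root of F. Shares and co-detection were tested by exact sign flips over libraries. Simulated data with known changes were used to test the fits. Alternatives were DESeq2 1.42.0 (test and size factors), no filter, no block, stricter gates, other cells without gate UMIs, thinning, single batches and leaving out each library. The gates share cells with each other and with the comparison cells of other gates, so comparisons are not independent. The members, gates and lists were chosen with earlier results of these data known. The genes named are the members, the 3 largest changes each way in the birth-order list, and the 5 genes most like each member. The gene that drives the cre-GFP transgene is not reported here.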

Additional observations from a re-analysis of the deposited data

How the results depend on the processing

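Across the alternatives, the members' log2 changes kept direction and call in 938 settings, lost the call in 36, gained one in 22 and changed sign in 25. The changes of all 5 members between the Slc6a9 and Gad gates kept both in all 20 alternatives run, at 3.29 to 4.62 for Prox1, 2.89 to 4.95 for Nfix, 2.75 to 4.49 for Nfib, 0.77 to 2.08 for Nfia and -1.26 to -0.65 for Nfic. Where a cause is not named below, it was not tested.

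Fewer genes were called after cells were thinned to 2000 UMIs, which also leaves out every shallower cell, and the parts of depth and of cell number were not separated. Then 4438 genes were called for Slc6a9 against Gad in place of 6887, 3481 in place of 5633 for Gjd2, 932 in place of 2027 for Cck, 1990 in place of 3966 for Chat and 1451 in place of 2880 for Slc17a8. Within the Slc6a9 gate, 1816 were called in place of 3355 for Gjd2, 1069 in place of 1796 for Prom1 and 488 in place of 1384 for Slc17a8. Within the Gad gate, 666 were called in place of 1804 for Cck and 1816 in place of 4011 for Chat. Fewer libraries also gave fewer calls: batch 2 alone called 1778 genes for Prom1 (3872 with all) and 437 for Prom1 within the Slc6a9 gate, and batch 3 alone called 1408 for Chat and 1537 for Chat within the Gad gate. Without a filter on low counts, 2344 genes were called for Slc17a8 within the Slc6a9 gate. Of the family shares, 34 passed with all libraries and 0 in batch 2 or batch 3 alone, where the smallest p of the exact test lies above the threshold.

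Without library as a replicate block, 5877 genes were called for Slc6a9 against Gad and 4533 for Gjd2, 3470 for Prom1, 1412 for Cck, 3722 for Chat and 2567 for Slc17a8 against other cells. Nfic in the Gjd2 gate (0.16), Nfia in the Slc17a8 gate (-0.20) and Nfic of Slc17a8 cells within the Slc6a9 gate (0.49) then lost their calls, and Nfic in the Slc17a8 gate turned to 0.031.

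Of the log2 changes that turned sign, Nfic for Gjd2 had passed with all libraries and the others had not. In batch 2 alone Nfia for Prom1 was 0.30, Nfib for Slc17a8 0.11, Nfix for Slc17a8 0.43, Nfic for Slc17a8 0.069 and Nfix for Chat within the Gad gate -0.021. In batch 3 alone Nfic for Gjd2 was -0.058, Nfib for Cck -0.68 and Prox1 for Cck within the Gad gate -0.10. Thinning gave -0.079 for Nfic in Cck cells and -0.13 for the same gene within the Gad gate. Leaving out cells with 3 markers of another class gave -0.93 for Prox1 in Cck cells of the Gad gate and -0.19 for Nfix in its Chat cells. The latter was also -0.0072 with DESeq2, -0.021 without the filter and -0.13 to 0.17 without 1 library. Nfic for Slc17a8 was 0.026 with 1 UMI more in the gate, 0.0059 with other cells free of the gate's UMIs and -0.10 to 0.040 without 1 library.

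Among differences of family shares, in percentage points, batch 2 alone gave 1.53 for Nfib in Cck cells, 0.028 for Nfib and 3.89 for Nfix in Slc17a8 cells, 2.23 for Nfix in Slc17a8 cells of the Slc6a9 gate and -0.0955 for Nfix in Chat cells of the Gad gate. Nfic in Cck cells of the Gad gate was 2.62 in batch 3 alone and 9.42 without cells of other-class markers. In Chat cells of that gate, the same alternative gave -0.0176 for Nfib and -0.000867 for Nfix, thinning gave -1.15 and -0.252, and leaving out 1 library gave -1.36 to 1.18 for Nfix. At 3000 UMIs the difference in Prox1 detection was 5.37 with Nfib and 2.60 with Nfic in the Slc6a9 gate, and in the Gad gate the difference with Nfia was 0.268 for Nfib and 0.598 for Nfix. Without 1 library, Prox1 ranged from -4.25 to 1.37 with Nfib, -1.55 to 1.24 with Nfic and -0.697 to 1.74 with Nfix in the Slc6a9 gate, and Nfix with Nfic from -0.345 to 0.00201 in the Gad gate. None of the share or co-detection differences that changed sign had passed with all libraries.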

Other observations

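Beyond the 7 gates, the members were also read in gates on single marker genes, given as the mean CPM over libraries with at least 10 cells. Nfia was 347 ± 55.1 CPM (SD, n = 10) in cells with at least 10 UMIs of the peptide gene Vip, with Prox1 at 18.7. It was 233 in cells with at least 10 UMIs of Cartpt, with Prox1 at 59.4, and 199 in cells with at least 3 UMIs of the factor gene Pou3f3, with Prox1 at 43.3. In these 3 gates Nfia was above Prox1 in its mean level, which was not particular to them. Of the 7 gates, the same order held in the Gad gate (44.4 against 15.8 CPM) and the Slc17a8 gate (52.2 against 32.8). In the Gjd2, Slc6a9, Prom1, Cck and Chat gates Prox1 was above Nfia.

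Nfix was 684 ± 173 CPM in cells with at least 3 UMIs of the factor gene Ebf3, in the 4 libraries with enough of these 123 cells, with Nfib at 128, Prox1 at 179 and no UMI of Nfia in those 4. Over all libraries pooled, Nfix was 541 CPM in Ebf3 cells and 578 in the Prom1 gate. Nfic was 208 ± 18.8 CPM in cells with at least 3 UMIs of Maf. Prox1 was 182 ± 14.3 CPM in cells with at least 3 UMIs of Lamp5 and 174 ± 26.7 in those with at least 3 of Neurod2. These gates were described without a test.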
